A study of Rattus norvegicus with 63 samples.

Results

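Axon guidance ligands and receptors are secreted or membrane-bound cues, together with the receptors that read them. Their expression was followed here in rats that had self-administered a psychostimulant, in the striatum and the prefrontal cortex (PFC). A gene was a member when its symbol began with Sema, Plxn, Epha, Ephb, Efna, Efnb, Slit, Robo, Unc5 or Ntng, or was Nrp1, Nrp2, Ntn1, Ntn4 or Dcc. Slitrk genes were left out, and each gene was read from its probe set of highest mean log2 signal. This gave 58 members of the 14218 genes named on the arrays. They comprised 17 semaphorins, 8 plexins, 2 neuropilins, 5 ephrins, 12 Eph receptors, 3 slits, 3 Robo receptors, netrin 1 (Ntn1), netrin G1 (Ntng1), 4 netrin receptors (Dcc, Unc5a, Unc5b and Unc5c), Unc50 and Unc5cl. Unc50 and Unc5cl share the letters Unc5 but are not netrin receptors, and 56 members remain without them. No probe set with a single symbol named Ntn4 or Ntng2.

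Semaphorins act through plexins, and most of the secreted class 3 semaphorins also need a neuropilin as the ligand-binding co-receptor. Ephrins are membrane-bound ligands of the Eph receptor tyrosine kinases, and both partners can signal. Slits repel growing axons through Robo receptors, while netrin 1 attracts through Dcc and repels through Unc5 receptors. In the adult forebrain the same molecules remain in neurons and glia, where they are known for roles in synapse formation, dendritic spines and myelinating cells.

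The animals were male Wistar rats, 4 weeks old on arrival and 6 weeks old at the first injection. All received intraperitoneal injections 2 times a day for 7 days, then conditioned place preference training and intravenous self-administration. Rats of the naive cohort were injected with saline before training. They were then conditioned with saline, with amphetamine or methamphetamine at 1.25 or 5 mg/kg, or with methylphenidate at 5 mg/kg. In the pretreated cohort the stimulant groups had 7 days of the same stimulant at 5 mg/kg and were conditioned at 5 mg/kg, and its controls had saline throughout. Rats earned infusions of amphetamine or methamphetamine (0.1 mg/kg each), of methylphenidate (0.25 mg in 0.1 ml) or of saline (0.1 ml). Infused doses were therefore not matched for methylphenidate. The rats with the most robust self-administration were used, and their brains were dissected on the day that followed the final session. The striatal piece held the nucleus accumbens and the rostral part of the caudate putamen.

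The 63 arrays gave 31 PFC and 32 striatal profiles. Each region had 5 naive saline arrays and 3 arrays in every other group, except 2 for naive methamphetamine 1.25 mg/kg in the PFC. The labels speak of independent RNA pools but also of about as many rats as arrays. If arrays of a group share animals, the p-values measure only the spread between arrays. The signal has no counting depth, so the number of arrays limits the precision. All values are log2 of MAS5 signal, and differences are in log2 units, with the standard error (SE) of the limma fit.

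Both dissections carried their region's markers. The 8 striatal projection neuron markers tested were all higher in the striatum of saline rats, with a median difference of 3.68 in the naive and 3.60 in the pretreated cohort. The cortical markers were lower by a median of -3.48 and -3.38, with 6 of 7 passing in each. The striatal array of naive methamphetamine 1.25 mg/kg replicate 1 stood apart, because its striatal markers averaged 8.52 and its cortical markers 10.04. The other stimulant arrays of the naive striatum had striatal markers of 12.16 to 12.69. The array of cortical profile was kept in the main fits, and so in the spread that the striatal and region tests use. Naive saline striatal replicate 5 had averaged thalamus markers of 9.79, against 8.38 to 8.81 on the other naive saline striatal arrays. It was kept too, and the part of these markers in the member values was not tested. Naive arrays also formed 2 batches by the BioB hybridisation control, which separated at a log2 signal of 8. The higher-reading set, batch A, consisted of saline 1 to 3, methamphetamine at either dose and amphetamine at 1.25 mg/kg. Saline 4 and 5, methylphenidate and amphetamine at 5 mg/kg made up batch B. The log2 ratios of 3′ to 5′ signal of the control transcripts, which rise as RNA is degraded or incompletely copied, also separated the saline arrays of the batches. In the PFC the Gapdh log2 ratio was 0.25 to 0.37 in batch A and 1.02 to 1.20 in batch B, and the actin log2 ratio 2.04 to 2.89 and 3.85 to 4.30. In the striatum they were 0.53 to 0.57 against 1.14 to 1.16, and 2.71 to 2.77 against 3.54 to 3.80. What the batches were is not given in the sources used here, and the part of RNA quality in values that follow batch was not tested.

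The 40% of genes with the lowest mean signal were left out of each fit, which left 8531 genes. Of the 58 members, 34 were tested in the PFC, 33 in the striatum and 35 in the fit of both regions, and 30 were tested in both regions. In neither region did 21 members reach the filter, including Dcc, Robo1, Robo3, Sema3a, Sema3f, Slit1 and Unc5a. A member near the filter that is high in only some groups could pass through them, so the tested members do not stand for the whole set. By family, 6 of 17 semaphorins, 3 of 5 ephrins and 6 of 12 Eph receptors reached the filter in neither region.

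Promoter windows, 250 bases before to 50 bases after the annotated start in the RefSeq tables of build GRCr8, were found for 44 of the 58 members. Those of Epha3 and Robo2 are shown because these were the members that passed a test of the mean of all stimulant groups, and that of Ephb6 because it had the smallest p-value of the 35 members in both region comparisons. Epha3 did not pass that test with no signal filter. Each window is written 5′ to 3′ on the gene's strand, with any searched motif in capitals.
Epha3 (chr11:14920376-14920675, minus strand): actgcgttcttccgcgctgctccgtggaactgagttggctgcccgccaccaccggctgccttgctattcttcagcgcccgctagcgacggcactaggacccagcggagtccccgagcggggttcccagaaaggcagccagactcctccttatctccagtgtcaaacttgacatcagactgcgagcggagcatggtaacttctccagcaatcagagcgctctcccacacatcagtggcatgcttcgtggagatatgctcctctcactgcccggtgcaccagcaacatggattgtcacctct
Robo2 (chr11:26526363-26526662, minus strand): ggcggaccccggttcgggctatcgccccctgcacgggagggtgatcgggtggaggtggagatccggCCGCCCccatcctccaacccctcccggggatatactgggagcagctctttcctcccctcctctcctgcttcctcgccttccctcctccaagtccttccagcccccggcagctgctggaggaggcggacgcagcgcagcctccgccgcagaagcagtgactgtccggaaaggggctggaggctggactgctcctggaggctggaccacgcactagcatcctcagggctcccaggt
Ephb6 (chr4:71458382-71458681, plus strand): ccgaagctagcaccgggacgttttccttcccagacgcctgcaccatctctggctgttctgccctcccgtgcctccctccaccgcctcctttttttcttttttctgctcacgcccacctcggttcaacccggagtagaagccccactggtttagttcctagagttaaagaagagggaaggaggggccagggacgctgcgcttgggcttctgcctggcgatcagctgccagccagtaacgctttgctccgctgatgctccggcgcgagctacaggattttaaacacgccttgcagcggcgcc
The motifs searched on both strands were the GC box GGGCGG, the cAMP response element TGACGTCA, the E box CACGTG, the AP-1 site TGAGTCA and the TATA box TATAAA. The Robo2 window held 1 GC box, beginning 184 bases before the start and read on the opposite strand, while the Epha3 and Ephb6 windows held none of the 5 motifs. A GC box was in 25 of the 44 member windows (56.8%), against 34.9% of 27457 promoters. The E box was in 4 member windows (9.09%), against 6.65% of all. The cAMP response element and the AP-1 site were each in 1 member window (2.27%), against 1.91% and 4.53%. No member window held TATAAA, which 14.3% of all promoters did. A match describes the letters of this window and not a bound site.

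The first comparison set striatum against PFC in saline rats, which shows where each ligand and receptor was expressed without stimulant. Of 35 members tested, 21 differed among naive saline rats, 4 with more signal in the striatum and 17 with less. Among pretreated-cohort saline rats 17 differed, 7 with more and 10 with less. In these region comparisons, naive and pretreated name the cohort only, because all of these rats had saline and no stimulant. The share of all tested genes that differed was 40.4% for the naive cohort (21.2% with more and 19.2% with less signal in the striatum) and 27% for the pretreated cohort (13% and 14%). Members lower in the striatum thus made up 48.6% of those tested in the naive cohort and 28.6% in the pretreated cohort. The median member difference was -0.14 and 0.03, against 0.03 and 0.00 over all genes. A passing gene had a limma p-value below 0.05 after Benjamini-Hochberg adjustment over all 8531 genes. Ntn1 and Plxnd1, with PFC means of 7.22 and 7.43, reached the filter of 7.56 only through the striatum. Plxna1, Ntng1 and Nrp2, with striatal means of 7.18, 7.33 and 7.54, reached it only through the PFC. Their calls were all higher in the region that admitted them, so the counts above do not stand for members of low signal. Each of these calls remained with no filter.

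**Figure D1:**
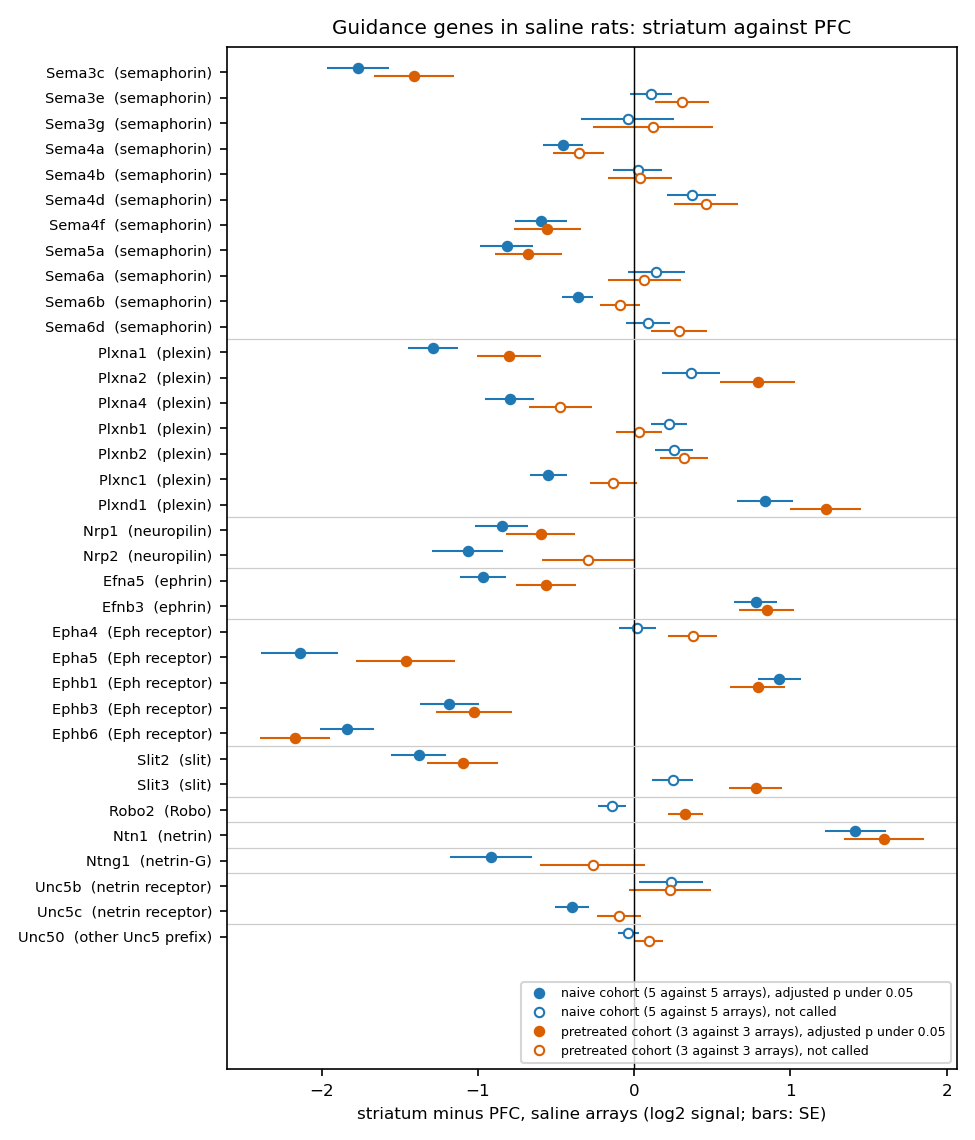
Striatum minus PFC in saline rats (x axis, log2 signal) for the 35 members tested, by family; points are fitted differences with SE bars, blue for the naive cohort (5 against 5 arrays) and orange for the pretreated cohort (3 against 3), filled where the adjusted p was under 0.05. Ephb6, Epha5, Sema3c and Slit2 lie left of zero and Ntn1, Plxnd1, Ephb1 and Efnb3 right of zero, filled in both cohorts.

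Both cohorts called 14 members in the same direction, which is 66.7% of the naive and 82.4% of the pretreated calls, and none in opposite directions. Of these, 4 were higher in the striatum (Efnb3, Ephb1, Ntn1 and Plxnd1) and 10 were lower (Efna5, Epha5, Ephb3, Ephb6, Nrp1, Plxna1, Sema3c, Sema4f, Sema5a and Slit2). The naive cohort alone called Nrp2, Ntng1, Plxna4, Plxnc1, Sema4a, Sema6b and Unc5c, all lower. The pretreated cohort alone called Plxna2, Robo2 and Slit3, all higher. The difference between the cohorts in these region differences was not tested. In dissected tissue, fewer cells of a type and less RNA per cell cannot be told apart. Oligodendrocyte markers moved with region too: 9 of 9 were higher in the naive striatum (median 0.58) and 1 of 9 in the pretreated striatum (median 0.39), and their part in the member differences was not tested.

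Among the ligands, 5 of 11 semaphorins tested were lower in the naive striatum and 3 of 11 in the pretreated striatum, and none was higher. Sema3c, a secreted class 3 semaphorin, showed the widest gap. Its log2 signal in naive saline PFC was 9.63, 9.93, 10.21, 10.21 and 10.18, and in naive saline striatum 7.83, 8.09, 8.44, 8.28 and 8.66. Pretreated saline arrays read 9.83, 10.16 and 10.18 in the PFC and 8.56, 8.67 and 8.70 in the striatum. The regions did not overlap in either cohort, and the difference was -1.77 ± 0.20 (adjusted p = 2.52e-10) in the naive and -1.41 ± 0.26 (adjusted p = 2.21e-05) in the pretreated cohort. Sema5a, a transmembrane semaphorin with thrombospondin repeats, read 9.73 to 9.97 in naive PFC and 8.92 to 9.18 in naive striatum. The difference was -0.82 ± 0.17 (adjusted p = 7.78e-05) in the naive cohort and -0.68 ± 0.22 (adjusted p = 0.0142) in the pretreated cohort. The pretreated call was lost in 4 of the 6 fits that left out 1 array, each time with the same sign. Sema4f, a transmembrane semaphorin, gave -0.60 ± 0.17 (adjusted p = 0.00298) and -0.56 ± 0.21 (adjusted p = 0.046), the second lost in 5 of 6 such fits and with no signal filter (adjusted p = 0.0622). Sema4a (-0.45 ± 0.13, adjusted p = 0.00325) and Sema6b (-0.36 ± 0.10, adjusted p = 0.00307) passed in the naive cohort alone.

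The 2 ephrins tested went in opposite directions. Efna5, a lipid-anchored ligand of EphA receptors, read 9.37, 9.52, 9.54, 9.55 and 9.85 in naive saline PFC against 8.66, 8.46, 8.48, 8.46 and 8.93 in naive saline striatum. The pretreated arrays read 9.14, 9.45 and 9.63 against 8.89, 8.80 and 8.83. Efna5 was lower in every striatal array of its cohort, by -0.97 ± 0.15 (adjusted p = 4.52e-07) and -0.56 ± 0.19 (adjusted p = 0.023), and 4 of 6 fits without 1 array lost the pretreated call. Efnb3, a transmembrane ephrin, read 9.80, 9.36, 9.28, 9.31 and 9.41 in naive PFC against 10.35, 10.41, 10.14, 10.20 and 9.94 in naive striatum. In pretreated rats it read 9.34, 9.39 and 9.45 against 10.39, 9.98 and 10.36. The striatal arrays were higher without overlap, by 0.78 ± 0.14 (adjusted p = 6.39e-06) and 0.85 ± 0.18 (adjusted p = 0.000171).

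Of the secreted slits, Slit2 was lower and Slit3 higher or not different in the striatum. Slit2 read 9.11, 9.42, 9.40, 9.53 and 9.59 in naive PFC and 7.73, 8.25, 7.71, 8.05 and 8.41 in naive striatum. Pretreated arrays read 9.38, 9.49 and 9.67 against 8.46, 8.38 and 8.41. The regions did not overlap, and the differences were -1.38 ± 0.18 (adjusted p = 6.66e-09) and -1.10 ± 0.23 (adjusted p = 0.000155). Its other well-expressed probe set gave -2.05 (adjusted p = 7.97e-11) and -1.20 (adjusted p = 0.00113). Slit3 read 7.62, 7.61 and 7.43 in pretreated PFC against 8.26, 8.36 and 8.37 in pretreated striatum, a difference of 0.78 ± 0.17 (adjusted p = 0.00035). In naive rats Slit3 overlapped between regions, at 7.52 to 7.83 and 7.73 to 8.20 (0.25 ± 0.13, adjusted p = 0.132).

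Netrin 1, the secreted netrin, was the member with the widest excess in the striatum. Ntn1 read 7.62, 7.42, 7.39, 7.15 and 7.26 in naive PFC and 9.16, 8.77, 8.79, 8.57 and 8.64 in naive striatum. Pretreated arrays read 7.45, 7.16 and 7.29 against 8.89, 8.81 and 8.997. Every striatal array lay above every PFC array, with differences of 1.42 ± 0.20 (adjusted p = 5.64e-08) and 1.60 ± 0.25 (adjusted p = 2.15e-06). The PFC mean lay below the signal filter, so Ntn1 entered the striatal and region fits only. Netrin G1, a lipid-anchored relative that binds a synaptic adhesion protein, was lower in naive striatum (Ntng1, -0.92 ± 0.26, adjusted p = 0.00376). Its naive values overlapped, at 7.68, 8.49, 8.35, 8.47 and 8.51 in the PFC and 7.11, 7.26, 6.41, 7.29 and 8.84 in the striatum. The 8.84 was striatal saline replicate 5, the array of high thalamus markers. The difference within batch B was -0.42 (adjusted p = 0.345). In pretreated rats it was -0.26 ± 0.34 (adjusted p = 0.616).

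The receptors divided as well. Of 5 Eph receptors tested, Epha5, Ephb3 and Ephb6 were lower and Ephb1 higher in the striatum of both cohorts, and Epha4 passed in neither. Epha5, a receptor of A-type ephrins, read 9.94, 10.25, 10.47, 10.53 and 10.86 in naive PFC against 7.98, 8.03, 7.94, 8.46 and 8.95 in naive striatum. Pretreated values were 10.35, 10.71 and 10.81 against 9.04, 9.31 and 9.14. The gap exceeded the spread in both cohorts, at -2.14 ± 0.25 (adjusted p = 6e-10) and -1.46 ± 0.32 (adjusted p = 0.000333). Ephb6, an Eph receptor without kinase activity, read 9.78, 10.05, 9.98, 9.87 and 9.78 in naive PFC and 8.24, 8.10, 7.70, 8.20 and 8.04 in naive striatum. In pretreated rats the values were 9.71, 9.85 and 9.71 against 7.70, 7.58 and 7.47. With no overlap, the differences were -1.84 ± 0.17 (adjusted p = 2.69e-12) and -2.17 ± 0.22 (adjusted p = 3.19e-10).

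Ephb3 and Ephb1, both receptors of B-type ephrins, opposed each other. Ephb3 read 8.75, 8.42, 8.69, 8.76 and 8.94 in naive PFC and 7.30, 7.45, 7.62, 7.80 and 7.47 in naive striatum. Pretreated values were 8.69, 8.57 and 8.50 against 7.16, 8.21 and 7.33. Ephb3 was lower in all striatal arrays, by -1.18 ± 0.19 (adjusted p = 9.52e-07) and -1.02 ± 0.24 (adjusted p = 0.000943). Ephb1 read 8.08, 8.09, 8.06, 7.97 and 8.13 in naive PFC and 8.94, 9.08, 8.76, 9.06 and 9.12 in naive striatum. Its pretreated values were 8.34, 8.35 and 8.19 against 9.19, 9.14 and 8.93. Ephb1 was higher in all striatal arrays, by 0.93 ± 0.14 (adjusted p = 2.32e-07) and 0.79 ± 0.18 (adjusted p = 0.00049).

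Plexins, the signalling receptors of semaphorins, had members on both sides: of 7 tested, 1 was higher and 3 lower in naive striatum, and 2 higher and 1 lower in pretreated striatum. Plxna1, which signals with neuropilins, read 8.87, 8.30, 8.77, 8.14 and 8.54 in naive PFC and 7.42, 7.41, 7.28, 6.89 and 7.20 in naive striatum. Pretreated values were 8.20, 8.16 and 7.89 against 7.07, 7.40 and 7.37. It was lower without overlap by -1.29 ± 0.16 (adjusted p = 3.91e-09) and -0.80 ± 0.21 (adjusted p = 0.0024). Plxnd1, a receptor of Sema3e, read 7.24, 7.60, 8.09, 7.37 and 7.38 in naive PFC and 8.38, 8.83, 8.55, 8.11 and 8.002 in naive striatum. In pretreated rats it read 7.64, 6.96 and 6.98 against 8.36, 8.37 and 8.53. The lowest naive striatal array lay within the PFC range, and the differences were 0.84 ± 0.18 (adjusted p = 0.000128) and 1.23 ± 0.23 (adjusted p = 3.34e-05).

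Plxna2 passed in saline rats of the pretreated cohort (0.79 ± 0.24, adjusted p = 0.01), at 8.54, 9.21 and 9.16 in the PFC against 9.87, 9.73 and 9.68 in the striatum. This call was lost without PFC pretreated saline replicate 1, at 0.58 (adjusted p = 0.112). The naive Plxna2 difference was 0.36 ± 0.19 (adjusted p = 0.114). Plxna4 (-0.80 ± 0.16, adjusted p = 4.37e-05) and Plxnc1 (-0.55 ± 0.12, adjusted p = 0.000153) were lower in naive striatum, and in pretreated rats gave -0.47 (adjusted p = 0.0761) and -0.13 (adjusted p = 0.568). Both neuropilins were lower in naive striatum. Nrp1 read 9.43, 9.66, 9.67, 9.22 and 9.41 in naive PFC against 8.53, 8.78, 9.15, 8.10 and 8.59, and 9.19, 9.38 and 9.33 in pretreated PFC against 8.81, 8.85 and 8.45. The groups did not overlap, at -0.85 ± 0.17 (adjusted p = 6.44e-05) and -0.60 ± 0.22 (adjusted p = 0.0373), and 5 of 6 fits without 1 array lost the pretreated call, as did the fit of all probe sets (adjusted p = 0.0558). Nrp2 read 8.45, 8.76, 8.45, 7.98 and 8.18 in naive PFC against 7.13, 6.97, 7.35, 7.23 and 7.81, a difference of -1.07 ± 0.23 (adjusted p = 0.000164), and -0.55 within batch B (adjusted p = 0.134). The 7.81 was the striatal saline array of high thalamus markers. In pretreated rats the Nrp2 ranges met, at 8.04 to 8.30 and 7.64 to 8.22 (-0.30 ± 0.30, adjusted p = 0.507).

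Robo2, the 1 slit receptor above the filter, was higher in the striatum of saline rats of the pretreated cohort. Its PFC values in these rats were 10.80, 10.94 and 10.93 and its striatal values 11.33, 11.14 and 11.18. That difference was 0.33 ± 0.11 (adjusted p = 0.0252), lost without PFC saline replicate 1 (0.28, adjusted p = 0.11) or without striatal saline replicate 1 (0.27, adjusted p = 0.122). In naive rats the regions overlapped, at 10.63 to 11.06 and 10.63 to 10.92 (-0.14 ± 0.09, adjusted p = 0.197). Of the 2 netrin receptors tested, Unc5c was lower in naive striatum (-0.40 ± 0.11, adjusted p = 0.00267) and Unc5b passed in neither cohort. Unc50 passed in neither.

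With no filter on signal, the region comparison called 28 of the 58 members in the naive cohort (48.3%, against 28.6% of all 14218 genes), 6 higher and 22 lower. In the pretreated cohort it called 20 (34.5%, against 18.3% of genes), 8 higher and 12 lower. The additions included 3 members of low signal called in the same direction in both cohorts. Sema3f, a secreted semaphorin, was higher in the striatum by 1.16 and 1.14, and Robo3, a divergent Robo, was lower by -2.01 and -1.66. Sema3d, also a secreted semaphorin, was lower by -0.63 (adjusted p = 0.00825) and -0.74 (adjusted p = 0.0256). Their signals were below the level at which the main tests were run.

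Fewer members differed with stimulants than between regions. All stimulant groups of a cohort, averaged with equal weight, were set against that cohort's saline arrays in each region. With limma the PFC had no member passing among 34, in the naive or in the pretreated cohort. In the striatum, 1 of 33 members passed in each cohort: Epha3 rose in naive rats and Robo2 fell in pretreated rats. Epha3 reached the signal filter only through the naive stimulant arrays, where it was high, so its call is not independent of the filter. With no filter it did not pass (limma adjusted p = 0.0869), and no member did in naive striatum. Over all genes tested, 0.0586% passed in naive PFC, 0.0703% in pretreated PFC, 0.0938% in naive striatum and 0.363% in pretreated striatum. At an unadjusted p under 0.05 there were 6 members in naive PFC (17.6%, against 8.73% of genes) and 2 in pretreated PFC (5.88%, against 5.45%). The striatum had 9 in naive rats (27.3%, against 11.5%) and 10 in pretreated rats (30.3%, against 16.2%). Comparisons within a cohort share their saline arrays.

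**Figure D2:**
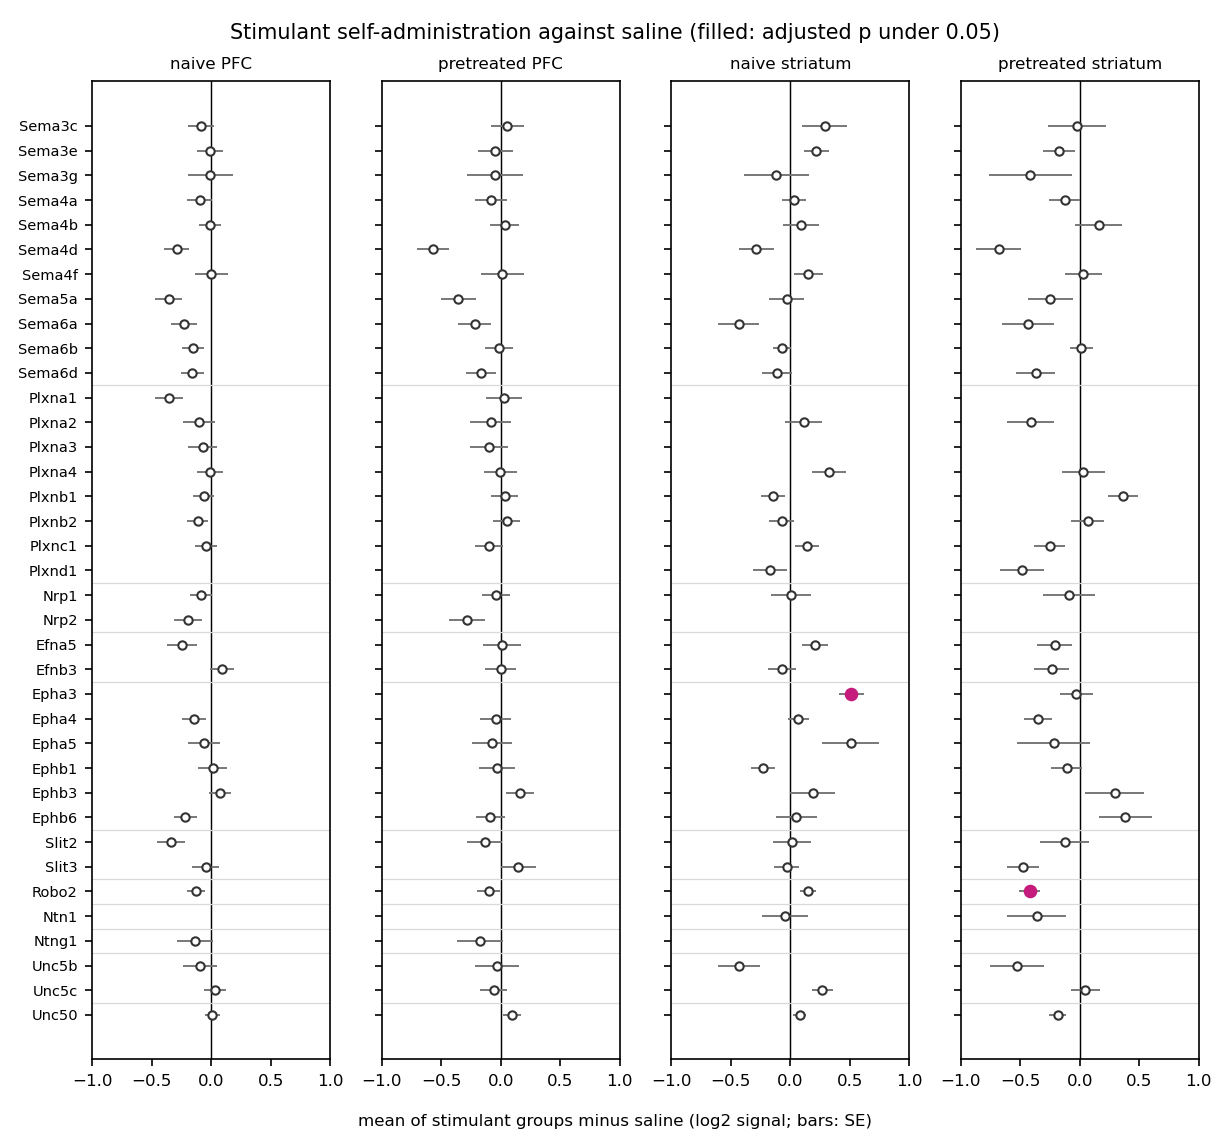
Mean of the stimulant groups minus saline (log2 signal) for each tested member, by family, in the 4 combinations of region and cohort, with SE bars; filled points had an adjusted p under 0.05. Epha3 in naive striatum and Robo2 in pretreated striatum are the filled points. Epha3 reached the signal filter only through the naive stimulant arrays and did not pass with no filter.

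Epha3, a receptor of A-type ephrins, rose in the striatum of naive rats. The 5 saline arrays read 7.08, 7.16, 6.93, 7.56 and 7.57. Amphetamine 1.25 mg/kg read 7.64, 7.64 and 7.86, and amphetamine 5 mg/kg 7.74, 7.99 and 8.06. Methamphetamine 1.25 mg/kg read 8.03, 7.50 and 7.77, and methamphetamine 5 mg/kg 7.53, 7.66 and 7.85. Methylphenidate 5 mg/kg read 7.73, 7.85 and 7.76. All 15 stimulant arrays lay above the saline mean and 13 of 15 above the highest saline array. The Epha3 mean over all striatal arrays was 7.62, just above the filter of 7.58, and all 5 naive saline arrays lay under the filter. Epha3 thus entered the test only through the naive stimulant arrays, and the test is not independent of that entry. The mean difference was 0.51 ± 0.11 (95% interval 0.30 to 0.73), with a limma adjusted p of 0.04997, just under the threshold. By group it ran from 0.42 ± 0.15 for methamphetamine 5 mg/kg to 0.67 ± 0.15 for amphetamine 5 mg/kg, and no single group passed (adjusted p 0.0587 to 0.27). The saline arrays of batch A were the 3 lowest, and batch A alone gave a difference of 0.66 (adjusted p = 0.112), batch B alone 0.29 (adjusted p = 0.636). It was 0.51 (adjusted p = 0.0102) with the batch as a block. Without the array of cortical profile it was 0.49 (adjusted p = 0.044). The call ended, at the same difference, with no signal filter (adjusted p = 0.0869), with all probe sets (adjusted p = 0.0937) and with the naive arrays fitted alone (adjusted p = 0.153), and a 60% filter left Epha3 out. Leaving out 1 array at a time moved it between 0.43 and 0.59 and ended the call in 13 of 20 fits, with the highest adjusted p, 0.279, without saline replicate 3. The other 2 Epha3 probe sets, at mean log2 signals of 5.76 and 3.81, gave 0.15 (adjusted p = 0.876) and -0.37 (adjusted p = 0.896).

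In the striatum of pretreated rats Epha3 read 7.51, 7.58 and 7.74 with saline and 7.21 to 7.94 with stimulants, and the ranges overlapped. That fit without a filter gave -0.03 (adjusted p = 0.956). Epha3 lay under the filter in the PFC, and the unfiltered fits there gave 0.16 (adjusted p = 0.795) in naive and -0.48 (adjusted p = 0.559) in pretreated rats. Its pretreated PFC arrays read 7.64, 7.77 and 7.92 with saline, 7.54, 7.56 and 7.65 with amphetamine, 6.79, 7.36 and 7.41 with methamphetamine, and 6.95, 6.98 and 7.44 with methylphenidate. Of these 9 stimulant arrays 8 were below the lowest saline array, and no test passed there.

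Robo2, the receptor of slits, fell in the striatum of pretreated rats. The saline arrays read 11.33, 11.14 and 11.18. Amphetamine read 10.91, 10.78 and 10.79, methamphetamine 10.91, 10.59 and 10.54, and methylphenidate 10.92, 10.81 and 10.91. All 9 stimulant arrays were below the lowest saline array, and the mean difference was -0.42 ± 0.09 (95% interval -0.60 to -0.24, adjusted p = 0.0264). By stimulant it was -0.39 ± 0.11 for amphetamine (adjusted p = 0.247), -0.54 ± 0.11 for methamphetamine (adjusted p = 0.0243) and -0.34 ± 0.11 for methylphenidate (adjusted p = 0.213), so methamphetamine passed by itself. Leaving out any of the 3 saline arrays ended the mean call, at -0.37 (adjusted p = 0.259), -0.46 (adjusted p = 0.0989) and -0.44 (adjusted p = 0.125). The methamphetamine call was lost in 5 of the 6 fits without 1 array, and with the pretreated arrays fitted alone (adjusted p = 0.052). The other 2 Robo2 probe sets gave -0.38 (adjusted p = 0.456) and -0.45 (adjusted p = 0.226).

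The pretreated striatal saline arrays were the highest Robo2 arrays of the study's striatum bar 1: amphetamine 5 mg/kg replicate 3 of the naive cohort read 11.17. In naive striatum the saline arrays read 10.92, 10.74, 10.63, 10.74 and 10.80 and the stimulant arrays 10.65 to 11.17. The naive difference was 0.15 ± 0.07 (adjusted p = 0.38). PFC arrays gave -0.13 ± 0.08 (adjusted p = 0.64) in naive and -0.10 ± 0.10 (adjusted p = 1) in pretreated rats, with all values between 10.51 and 11.06.

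The stimulant effect at 5 mg/kg was then compared between cohorts as a contrast of the fit. For Robo2 in the striatum the pretreated minus naive difference was -0.61 ± 0.11 (95% interval -0.85 to -0.38, adjusted p = 0.0255). This was 1 of 33 members, against 0.0586% of genes. It was lost in 6 of 26 fits without 1 array: naive saline replicate 2 or 3, naive amphetamine 5 mg/kg replicate 3, naive methylphenidate replicate 1, and pretreated saline replicate 1 or 3. The value stayed between -0.65 and -0.56, with the highest adjusted p, 0.159, without pretreated saline replicate 1. Other Robo2 probe sets gave -0.60 (adjusted p = 0.215) and -0.21 (adjusted p = 0.799). Next in order of p, Epha3 gave -0.57 ± 0.18 (adjusted p = 0.126). In the PFC no member of 34 passed with limma, against 0.0117% of genes, and none had an unadjusted p under 0.05, against 4.47% of genes. Pretreatment and any other difference between the cohorts cannot be told apart in this contrast.

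Striatal and PFC effects were compared in the same way. None of 35 members passed in either cohort with limma, and 0% of all genes did, while 2 members in naive (5.71%, against 6.34% of genes) and 3 in pretreated rats (8.57%, against 5.15%) had an unadjusted p under 0.05. The smallest p-values belonged to Robo2 in naive rats (0.28 ± 0.10, adjusted p = 0.751) and to Slit3 in pretreated rats (-0.63 ± 0.20, adjusted p = 0.866). A larger effect of stimulants in 1 region was therefore not shown for any member.

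**Figure D3:**
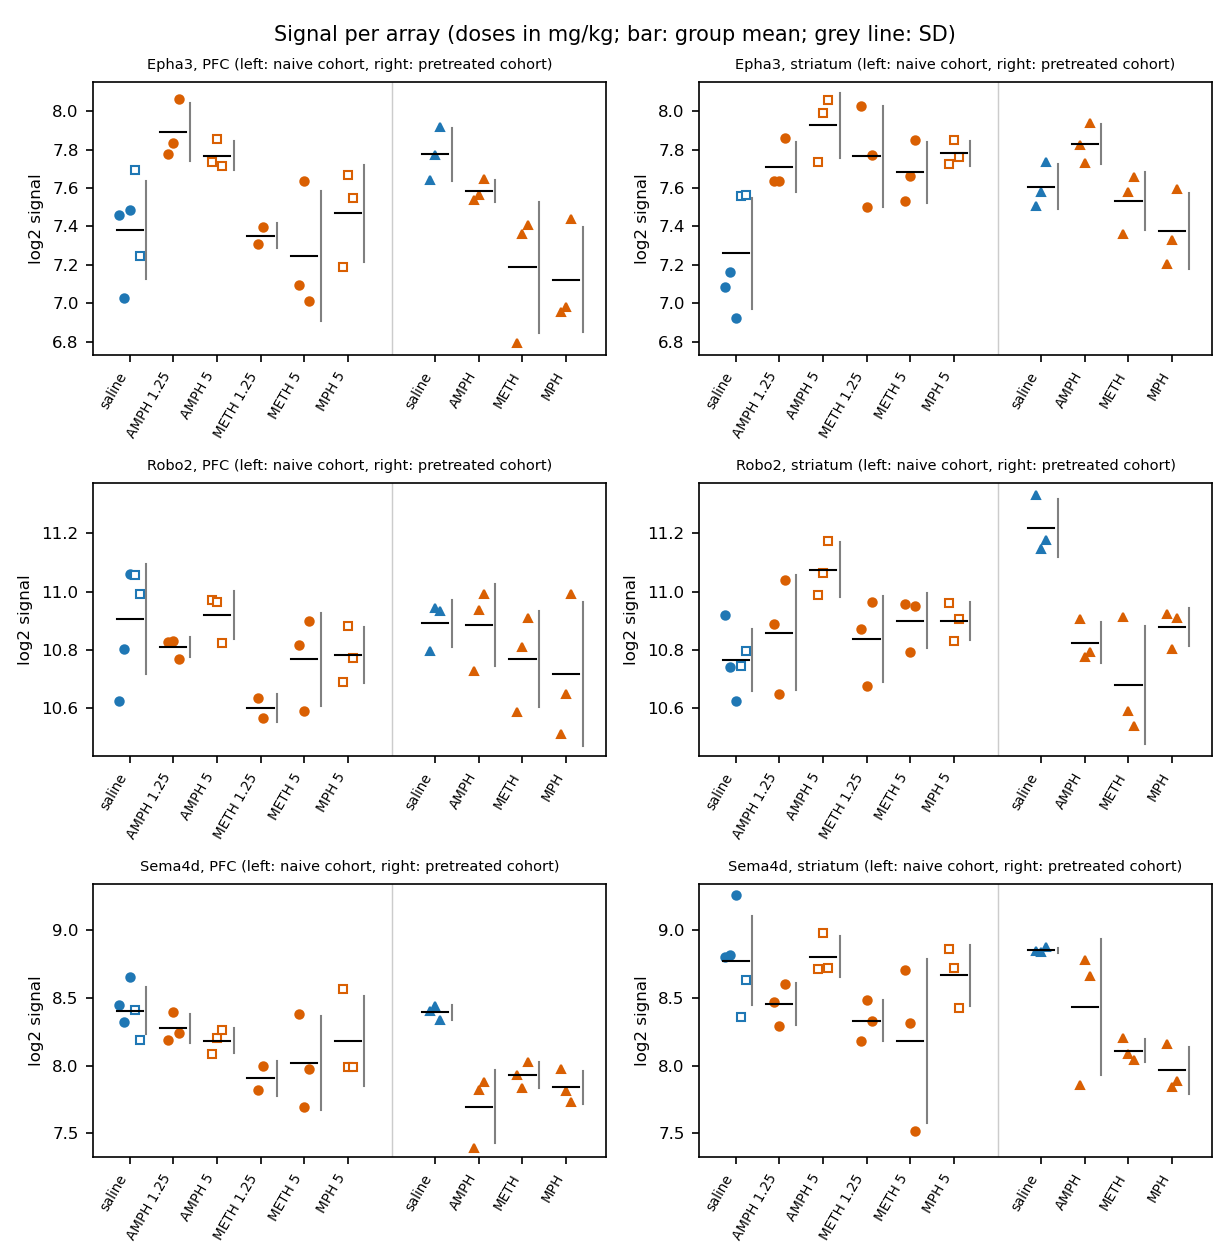
Log2 signal of Epha3, Robo2 and Sema4d on every array (points), by region and group; circles are naive arrays of batch A, open squares naive arrays of batch B, triangles pretreated arrays, blue for saline and orange for stimulants. Robo2 and Sema4d stimulant arrays of pretreated striatum lie below all 3 saline arrays, and the saline circles of Epha3 in naive striatum are lower than the saline squares.

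Members that did not pass are given with their values. Sema4d, a transmembrane semaphorin that binds Plxnb1 and is made by oligodendrocytes, separated the pretreated groups in both regions. In pretreated PFC the saline arrays read 8.40, 8.44 and 8.34. Amphetamine read 7.39, 7.82 and 7.88, methamphetamine 7.93, 7.83 and 8.03, and methylphenidate 7.97, 7.82 and 7.73. All 9 were below the lowest saline array, at -0.57 ± 0.13 (adjusted p = 0.125). In pretreated striatum saline read 8.84, 8.84 and 8.87. Amphetamine read 7.86, 8.78 and 8.66, methamphetamine 8.20, 8.09 and 8.04, and methylphenidate 8.16, 7.84 and 7.89. Again all 9 were below saline, at -0.68 ± 0.19 (adjusted p = 0.0853). In naive rats the saline and stimulant arrays overlapped in both regions, at -0.29 ± 0.11 (adjusted p = 0.427) in the PFC and -0.29 ± 0.15 (adjusted p = 0.459) in the striatum.

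Oligodendrocyte markers were also lower on the median beside Sema4d. Their median differences were -0.25 in naive PFC, -0.26 in pretreated PFC, -0.33 in naive striatum and -0.24 in pretreated striatum. The mean of the 9 markers in pretreated PFC was 11.73 to 12.02 with saline and 11.43 to 12.10 with stimulants. In pretreated striatum it was 12.18 to 12.50 with saline and 11.84 to 12.49 with stimulants. The marker ranges overlapped where the Sema4d ranges did not, and the part of oligodendrocytes in the Sema4d values was not tested.

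Over all 33 members tested in pretreated striatum, Robo2 and Sema4d included, 24 differences were below 0, as were 4497 of 8531 genes, and the median was -0.18 against -0.01. Slit3 read 8.26, 8.36 and 8.37 with saline, 7.81, 8.06 and 7.67 with amphetamine, 8.07, 7.68 and 7.62 with methamphetamine, and 8.08, 8.10 and 7.57 with methylphenidate. All 9 stimulant arrays were below saline, at -0.48 ± 0.14 (adjusted p = 0.0872), and without methamphetamine replicate 1 the adjusted p was 0.0404. Epha4, a receptor of both ephrin classes, read 12.35, 12.48 and 12.39 with saline and 11.97 to 12.23 with stimulants (-0.35 ± 0.11, adjusted p = 0.136). Plxnd1 read 8.36, 8.37 and 8.53 with saline and 7.33 to 8.33 with stimulants (-0.48 ± 0.18, adjusted p = 0.198). Plxnb1, the plexin that binds Sema4d, lay the other way: 9.67, 9.94 and 9.62 with saline and 9.94 to 10.28 with stimulants (0.36 ± 0.13, adjusted p = 0.159). By family, 8 of 11 semaphorins, 4 of 6 Eph receptors, 3 of 6 plexins and both slits were below 0.

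The dissection markers differed beside these values. Cortical markers in the striatum of pretreated rats averaged 6.80 to 7.67 with saline and 7.29 to 8.83 with stimulants. Striatal markers averaged 12.23 to 12.43 with saline and 11.84 to 12.16 with stimulants, with no overlap. Astrocyte markers averaged 11.88 to 12.05 with saline and 12.12 to 12.36 with stimulants. The part of these shifts in the member values was not tested.

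Naive striatum had 19 of 33 members above 0, as were 4344 of 8531 genes, with a median of 0.03 against 0.00. Unc5c, a netrin receptor, read 8.13, 8.27, 8.23, 7.82 and 8.26 with saline and 8.16 to 8.84 with stimulants. All 15 stimulant arrays were above the saline mean, at 0.27 ± 0.09 (adjusted p = 0.223). Sema6a, a transmembrane semaphorin, read 9.33, 9.19, 9.56, 9.17 and 9.23 with saline and 7.59 to 9.36 with stimulants (-0.43 ± 0.17, adjusted p = 0.298). The lowest of these, methamphetamine 5 mg/kg replicate 3, was also the lowest for Sema4d (7.52). Unc5b gave -0.43 (adjusted p = 0.326), Plxna4 0.33 (adjusted p = 0.352) and Ephb1 -0.23 (adjusted p = 0.376). The averaged oligodendrocyte markers were 12.35 to 12.64 with saline and 11.69 to 12.29 with stimulants in this comparison, with no overlap. The 11.69 is the array of cortical profile, and the lowest other stimulant array read 11.81. All 5 cortical markers tested lay above 0 (median 0.48), and their average was 7.40 with saline and 7.88 with stimulants without that array, in overlapping ranges. Blood markers averaged 8.83 with saline and 10.04 with stimulants, and the 2 saline arrays of batch B, at 7.81 or lower, were below all other arrays of this comparison. Hemoglobin beta (Hbb) gave 1.54 (adjusted p = 0.136, and 0.0018 with the batch as a block). The part of these markers in the member values, Epha3 included, was not tested.

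In naive PFC, 28 of 34 members were below 0, as were 4188 of 8531 genes, with a median of -0.09 against 0.00. Cortical markers were below 0 in 6 of 7, and their average was 10.13 with saline and 9.88 with stimulants. Blood markers averaged 8.15 with saline and 10.13 with stimulants. The part of these markers in the member values was not tested. Sema5a read 9.73, 9.84, 9.97, 9.92 and 9.73 with saline. Amphetamine 1.25 mg/kg read 9.20, 9.38 and 9.57, amphetamine 5 mg/kg 9.85, 9.85 and 9.91, and methamphetamine 1.25 mg/kg 8.78 and 9.20. Methamphetamine 5 mg/kg read 9.65, 8.93 and 9.76 and methylphenidate 9.73, 9.68 and 9.68. The groups of batch A held the low arrays, and the mean difference of -0.36 ± 0.12 (adjusted p = 0.346) became -0.57 in batch A alone (adjusted p = 0.307) and -0.04 in batch B alone (adjusted p = 0.941). Plxna1 gave -0.36 ± 0.12 (adjusted p = 0.389), from 8.14 to 8.87 with saline and 7.99 to 8.56 with stimulants. Slit2 gave -0.34 ± 0.12 (adjusted p = 0.401), from 9.11 to 9.59 with saline and 8.44 to 9.71 with stimulants. All 7 plexins and 10 of 11 semaphorins tested were below 0 in this comparison. In pretreated PFC, Sema5a gave -0.36 ± 0.15 (adjusted p = 0.756), from 9.55 to 9.92 with saline and 9.06 to 10.01 with stimulants, and Nrp2 gave -0.28 ± 0.15 (adjusted p = 0.943), from 8.04 to 8.30 and 7.28 to 8.33.

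Each stimulant group was also compared with saline by itself. Naive PFC had 6 member calls over its 5 groups, all lower and all in methamphetamine 1.25 mg/kg, against 2.34% of gene tests. In that group 6 of 34 members (17.6%) passed, against 11.1% of genes, and 31 of 34 lay below 0 with a median of -0.26. Of all genes, 540 passed as lower and 410 as higher in that group. The count of all genes below 0 is not given here, so a shift of members is not told apart from a shift of all genes. Single groups gave no member call in pretreated PFC (0.043% of gene tests) or naive striatum (0.197%). Pretreated striatum had 1, Robo2 with methamphetamine (0.262%). At an unadjusted p under 0.05 limma gave 15 members for methamphetamine 1.25 mg/kg in naive PFC (44.1%, against 29.1% of genes) and 2 to 8 for the other 4 groups (5.88 to 23.5%, against 7.96 to 13.5% of genes). Pretreated PFC had 2 to 4 per group (5.88 to 11.8%, against 3.48 to 7.24%) and naive striatum 3 to 8 (9.09 to 24.2%, against 9.28 to 14.7%). The 8 were with methamphetamine 1.25 mg/kg (24.2%, against 13.7% of genes), the group that holds the array of cortical profile. On that array Epha5 read 10.36, against 8.77 and 7.88 on the others of the group, and Ntn1 7.73, against 9.04 and 9.19. The part of that array in the 8 was not tested. Pretreated striatum had 6 for amphetamine (18.2%, against 8.72%), 9 for methamphetamine (27.3%, against 16.4%) and 9 for methylphenidate (27.3%, against 11.9%).

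The 6 members lower in the PFC with methamphetamine 1.25 mg/kg were Ephb6, Slit2, Sema5a, Sema6d, Sema6a and Efna5. Ephb6 read 9.09 and 9.26 against 9.78 to 10.05 with saline (-0.72 ± 0.15, adjusted p = 0.0086). Slit2 read 8.44 and 8.67 against 9.11 to 9.59 (-0.86 ± 0.19, adjusted p = 0.0096), and Sema5a, given above, gave -0.85 ± 0.19 (adjusted p = 0.0102). Sema6d, a transmembrane semaphorin, read 10.19 and 10.91 against 11.03 to 11.17 (-0.55 ± 0.15, adjusted p = 0.024). Both arrays lay below every saline array for these 4 members. Sema6a read 8.18 and 8.96 against 8.95 to 9.35 (-0.58 ± 0.17, adjusted p = 0.0328), and Efna5 read 8.92 and 8.93 against 9.37 to 9.85 (-0.64 ± 0.20, adjusted p = 0.0388). The group rests on 2 arrays, and without replicate 1 none of the 6 passed, with adjusted p from 0.351 to 0.76. Sema6d was then -0.20 and Sema6a -0.19. Within batch A none passed, with adjusted p from 0.113 to 0.2, although the differences were -0.52 to -0.85. With the batch as a block, Sema6d (-0.52, adjusted p = 0.0621) and Efna5 (-0.55, adjusted p = 0.107) did not pass. Efna5 also missed with no signal filter (adjusted p = 0.0572), and Sema6a with all probe sets (adjusted p = 0.0638). The next brightest Slit2, Sema6a and Sema5a probe sets gave -0.75 (adjusted p = 0.0914), -0.87 (adjusted p = 0.0241) and -0.34 (adjusted p = 0.527). The direction turned in a Sema6a probe set (0.38), a Sema5a probe set (0.15) and the other Efna5 probe set (1.23), at mean log2 signals of 3.06, 2.05 and 1.57, and none of these 3 passed. The BioB control read 10.06 and 10.60 on these arrays, and the mean of all 58 members was 7.59 and 7.77, against 7.77 to 8.02 in naive saline PFC. Their averaged cortical markers, 9.80 and 9.68, were below the saline range of 9.84 to 10.29. The log2 ratio of Gapdh 3′ to 5′ signal was 0.80 and 0.42 on them, against 0.25 to 0.37 on saline arrays of batch A. Endothelial markers averaged 8.39 and 8.95 against 8.94 to 9.23 with saline, and 8.39 was the lowest of naive PFC. The part of these in the 6 calls was not tested.

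**Figure D4:**
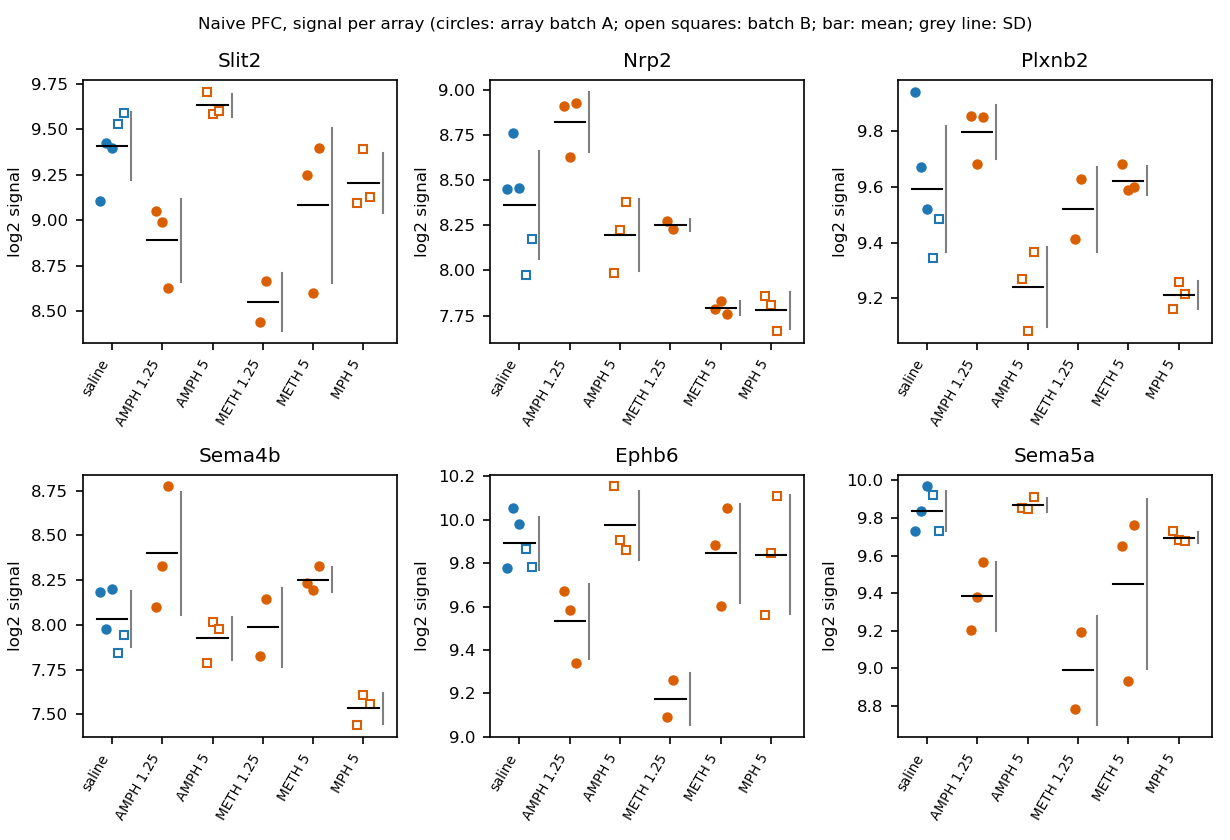
Log2 signal of Slit2, Nrp2, Plxnb2, Sema4b, Ephb6 and Sema5a on every naive PFC array, by group; circles are batch A and open squares batch B, blue for saline and orange for stimulants. The saline circles and squares already differ for Slit2, Plxnb2, Nrp2 and Sema4b, in the direction in which amphetamine 1.25 and 5 mg/kg differ.

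The 3 stimulants were compared in pairs at a conditioning dose of 5 mg/kg, 12 pairs over the regions and cohorts, with p-values adjusted over all genes within a pair. Methamphetamine differs from amphetamine by an added N-methyl group, and methylphenidate is a piperidine with an ester. Of all pairs, 1 gave a member call: Sema4b, a transmembrane semaphorin, in naive PFC, against 1.1% of gene tests there. It read 8.24, 8.19 and 8.33 with methamphetamine and 7.44, 7.61 and 7.56 with methylphenidate, a difference of 0.72 ± 0.15 (95% interval 0.41 to 1.02, adjusted p = 0.0209). The methylphenidate arrays lay below the saline range of 7.84 to 8.20, and the methamphetamine arrays at its top or above. Methamphetamine and methylphenidate lie in different batches, and with the batch as a block Sema4b gave 0.49 (adjusted p = 0.781). With the naive arrays fitted alone the adjusted p was 0.0627. In pretreated PFC the same pair gave -0.55 ± 0.15 (95% interval -0.86 to -0.25, adjusted p = 0.372), opposite in sign. The call was lost without methamphetamine replicate 1 or 3 or without methylphenidate replicate 1 or 3, with adjusted p up to 0.0932.

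No other pair gave a member call with limma, although up to 8 members per pair had an unadjusted p under 0.05. The pair with 8 was amphetamine and methamphetamine in naive PFC (23.5%, against 19.9% of genes). Naive striatum had 1.05% of gene tests passing in its pairs, and pretreated PFC and striatum 0% each. A missed threshold does not show that the stimulants act alike. Between amphetamine and methamphetamine, which share the infused dose, the 95% intervals reached -0.74 to 1.19 over the members in naive PFC and -0.99 to 1.50 in naive striatum. In pretreated rats they reached -0.97 to 0.61 in the PFC and -0.60 to 1.39 in the striatum. For Robo2 in pretreated striatum, amphetamine minus methamphetamine was 0.14 ± 0.11 (95% interval -0.07 to 0.36) and methamphetamine minus methylphenidate -0.20 ± 0.11 (-0.42 to 0.02).

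Dose was compared in naive rats, 5 against 1.25 mg/kg. In the PFC 4 members differed for amphetamine (11.8%, against 7.07% of genes) and none for methamphetamine, with 3.53% of gene tests passing over both drugs. Slit2 was higher at 5 mg/kg, reading 9.71, 9.59 and 9.60 against 9.05, 8.99 and 8.63 (0.74 ± 0.18, adjusted p = 0.0175). Plxnb2, a plexin of class 4 semaphorins, was lower, reading 9.27, 9.08 and 9.37 against 9.85, 9.68 and 9.85 (-0.56 ± 0.14, adjusted p = 0.0165). Nrp2 was lower, reading 7.99, 8.22 and 8.38 against 8.91, 8.63 and 8.93 (-0.62 ± 0.18, adjusted p = 0.0384). Sema4b was lower, reading 7.79, 8.01 and 7.98 against 8.10, 8.33 and 8.77 (-0.48 ± 0.15, adjusted p = 0.04998). Dose groups did not overlap for any of the 4. Averaged striatal markers on these PFC arrays were 9.50, 9.15 and 8.77 at 1.25 mg/kg and 8.10, 8.96 and 7.81 at 5 mg/kg. Naive saline PFC read 7.83 to 8.86. Averaged meningeal markers were 8.92, 7.36 and 8.65 at 1.25 mg/kg and 7.44, 7.76 and 7.52 at 5 mg/kg. The part of these markers in the 4 calls was not tested.

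The amphetamine doses lie in different batches, and dose and batch cannot be told apart without the saline arrays that both batches hold. Saline read 9.11, 9.42 and 9.40 in batch A and 9.53 and 9.59 in batch B for Slit2. It read 9.94, 9.67 and 9.52 against 9.35 and 9.48 for Plxnb2, and 8.45, 8.76 and 8.45 against 7.98 and 8.18 for Nrp2. Sema4b read 8.19, 7.98 and 8.20 against 7.84 and 7.95. For all 4 the saline arrays of the batches did not overlap and differed in the direction of the dose difference. With the batch as a block, none of the 4 passed: Slit2 gave 0.49 (adjusted p = 0.713), Plxnb2 -0.26 (adjusted p = 0.806), Nrp2 -0.14 (adjusted p = 0.946) and Sema4b -0.25 (adjusted p = 0.84). Nrp2 was lost in each of the 6 fits without 1 array, and Sema4b in 5. With no signal filter Nrp2 (adjusted p = 0.0566) and Sema4b (adjusted p = 0.0777) missed the threshold, as did Sema4b with quantile normalization (adjusted p = 0.0608). Methamphetamine, whose doses share batch A, had its smallest p in Ephb6 (0.67, adjusted p = 0.143), and 9 members had an unadjusted p under 0.05 (26.5%, against 15.7% of genes). Without methamphetamine 5 mg/kg replicate 2 the dose calls numbered 12 over both drugs, and the share of all genes in that fit is not given here. In naive striatum no member differed by dose (0.838% of gene tests, and 1.68% for amphetamine). Ephb1 came closest for amphetamine (0.52, adjusted p = 0.0825), and 5 members for amphetamine (15.2%, against 19% of genes) and 1 for methamphetamine (3.03%, against 5.15%) had an unadjusted p under 0.05.

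Proteins that carry guidance signals inside the cell were followed with a list of 76 listed partners, adaptors, GTPase regulators, kinases and co-receptors, 73 of them named on the arrays. None passed a mean comparison with limma, of 62 tested in the PFC and 59 in the striatum. At an unadjusted p under 0.05 they numbered 8 in naive PFC (12.9%, against 8.73% of genes) and 3 in pretreated PFC (4.84%, against 5.45%). There were 10 in naive striatum (16.9%, against 11.5%) and 14 in pretreated striatum (23.7%, against 16.2%). Chn2, a Rac GTPase-activating protein, gave -0.29 in naive and -0.38 in pretreated PFC. Fyn, a Src-family kinase, gave -0.33 in naive striatum (adjusted p = 0.118), and Chl1, an adhesion molecule that associates with neuropilin, gave -0.29 in pretreated striatum (adjusted p = 0.0846). Between regions, 12 partners were higher and 20 lower in naive striatum, and 11 higher and 16 lower in pretreated striatum, of 62 tested. These were 51.6% of partners against 40.4% of all genes, and 43.5% against 27%. Vav3, a Rac exchange factor, was higher by 1.93 and 1.86, and Limk1, a cofilin kinase, was lower by -1.59 and -1.34.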

How the data were processed

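Total RNA from rat PFC and striatum was hybridised to Affymetrix rat arrays. The deposited values are linear MAS5 intensity per probe set, per the submitters' processing notes; the version is not given in the sources used here. MAS5 scales every array to a common target, and the trimmed mean of the deposited intensity was 499.98 to 499.997 on each array with medians of 120 to 156, so a change in total RNA cannot be seen. Signals under 1 were set to 1 (18232 values, 4 of them of members) and log2 was taken of the deposited signal. The platform annotation gave 1 symbol to 20832 of 31099 probe sets, several to 436 and none to 9831, and probe sets with several symbols were not used. All 58 member symbols were current in RefSeq.

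Group means were fitted to all arrays of a region, or of both regions, with limma 3.58.1 under R 4.3.3 and eBayes with an intensity trend. Residual degrees of freedom were 21 (PFC), 22 (striatum) and 43 (both). Benjamini-Hochberg adjustment ran over the 8531 genes whose mean log2 signal was above 7.56 (PFC), 7.58 (striatum) or 7.56 (both). The script was tested on simulated data. Members, lists and tests were chosen with earlier results of these data known. Values per array are given for members that passed, for the 3 smallest p-values of each mean comparison and for the 10 widest region differences in each direction.

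Alternatives were quantile normalization, log2 of signal plus the 20th percentile, no filter or a 60% filter, all probe sets, no trend, 1 cohort alone, replicate number or BioB batch as a block, values within a batch, the other probe sets of a gene, and each array left out in turn. Same-numbered naive saline PFC and striatal samples deviated together (correlations 0.229 to 0.532 over 5 pairs, where numbers also follow batch). Pretreated pairs gave 0.0962 to 0.158 over 3 pairs. The region tests given above did not use any pairing, and replicate number entered only as the alternative block.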

Additional observations from a re-analysis of the deposited data

Results flagged for a closer look

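Among the 5 naive saline arrays of the PFC, 4 members had 1 array set apart from the others. Efnb3 read 9.80 in replicate 1 against 9.28 to 9.41 in the others. Ntng1 read 7.68 in replicate 1 against 8.35 to 8.51, and Plxna2 read 8.88 in replicate 1 against 9.18 to 9.25. Sema4f read 8.39 in replicate 5 against 8.99 to 9.09. These came from 52 such checks, of which chance would set apart about 1 in 20.

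The Robo2 stimulant effect at 5 mg/kg in the striatum differed between cohorts by -0.61 (pretreated minus naive), by the test of the difference itself.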

How the results depend on the processing

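Counts of member calls moved by more than 1.5 times under these settings. The members tested and the share of all genes called are not given here for each setting or left-out array. A move of member calls is therefore not told apart from a move of all genes. A 60% signal filter, which tests fewer genes, left 8 region calls in the naive and 8 in the pretreated cohort, 0 between stimulants and 2 between doses in naive PFC, and 0 for the mean in naive striatum. That last count was also 0 with no filter, with all probe sets, with the naive cohort alone and within batch A or batch B. Within batch A, single groups of naive PFC gave 0 calls. The batch as a block gave 0 between stimulants and 0 between doses in naive PFC, and 2 for single groups in naive striatum. One cohort alone gave 0 between stimulants in naive PFC, and 2 for the mean and 0 for single groups in pretreated striatum. The cause of these moves was not tested. The replicate block gave 11 calls for single groups, 2 between stimulants and 8 between doses in naive PFC. It gave 2 for the mean and 6 for single groups in naive striatum, and 3 for the cohort difference in the striatum. Across the groups of a region, same-numbered naive arrays did not deviate together (mean correlations -0.04 in the PFC and -0.02 in the striatum). Same-numbered pretreated arrays gave 0.18 in the PFC, against -0.09 for different numbers, and 0.06 against -0.03 in the striatum.

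Leaving out 1 array gave 0 to 12 single-group calls, 0 to 1 between stimulants and 0 to 12 between doses in naive PFC. Naive striatum gave 0 to 1 for the mean, 0 to 4 for single groups and 0 to 1 between stimulants. Pretreated striatum gave 0 to 2 for the mean and 0 to 3 for single groups, and the striatal cohort difference 0 to 1. Single-group calls of naive PFC were 12 without saline replicate 1 and 0 without methamphetamine 1.25 mg/kg replicate 1.

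Weaker probe sets of the same gene reversed 17 values, none of them past the threshold (smallest adjusted p = 0.0669). Between regions these were Ntn1 -0.46, Plxna1 0.21, Nrp2 2.29 and Efna5 0.076 in naive rats, and Plxna1 0.62 and Sema5a 0.19 in pretreated rats. In the mean comparisons they were Sema5a 0.059 and 0.13 and Plxna1 0.042 and 0.011 (naive PFC), Nrp2 2.15 (pretreated PFC), and Epha3 -0.37 and Sema6a 0.35 (naive striatum). For methamphetamine 1.25 mg/kg in the PFC they were Sema5a 0.15, Sema6a 0.38 and Efna5 1.23, and for the amphetamine dose Slit2 -1.36. The cause was not tested.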
